A study of Mus musculus with 7 samples.

Results

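Transcripts of 10 genes were followed in neutrophils sorted from injured mouse livers, namely Ltf, Camp, Lcn2, Ngp, Mmp8, Mmp9, Cd177, Itgb2l, Hp and Retnlg. The set was drawn up as contents of the specific and gelatinase granules of neutrophils and surface markers of granule release. The members were chosen by symbol from the 16047 genes of the expression table. They and the lists set beside them were chosen with earlier results of these data known. The shares called in them are therefore descriptions and not tests of the lists. All 10 were present and all 10 passed the filter of a mean of at least 1 RPKM (reads scaled to transcript length and to the total mapped), which left 9594 genes for testing.

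Neutrophils carry several kinds of granules, which are filled in turn while the cells mature in the bone marrow. Azurophil granules form first, followed by specific granules with lactoferrin and cathelicidin, by gelatinase granules, and last by secretory vesicles. Most granule genes are transcribed in immature cells and fall silent as the cell matures, while the proteins stay stored until the granules fuse with the surface or with a phagosome. Transcript levels in mature tissue neutrophils are thus not a measure of the stored protein.

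Male C57BL/6 mice of 8 to 12 weeks were studied 24 h after liver injury had been induced with acetaminophen (AILI). The treated mice received intraperitoneal injections of 400 µL of medium containing 29 µg/mL of MC-21, an antibody to CCR2 that ablates circulating Ly6Chi monocytes, starting 12 h before acetaminophen and repeated every 24 h, and the controls received PBS, so that antibody and medium cannot be told apart from each other. From each liver 50000 neutrophils were sorted as CD11b+ Ly6Clo Ly6G+ cells lacking CX3CR1-GFP, and 1 library for 3' RNA-seq was made per mouse. There were 4 libraries of PBS neutrophils (replicates 5 to 8) and 3 of MC-21 neutrophils (replicates 2 to 4). Whether the sequenced mice carried the GFP reporter is not stated in the labels.

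The depth, read from the steps between low values, was such that 1 RPKM in a transcript of 1 kb stood for 1.59 to 3.96 reads, fewest in MC-21 replicate 3. The sorted cells expressed all 10 neutrophil markers in the fixed list, with Csf3r, the G-CSF receptor, at 270 to 328 RPKM and Ly6g, which encodes the sorted antigen, at 16.3 to 69.0 RPKM. The 17 monocyte and macrophage markers summed to 465 to 572 RPKM in PBS and 226 to 311 RPKM in MC-21 neutrophils. Of the 15 that could be tested 4 fell (limma, adjusted p under 0.05), against 0.427% of all genes tested, namely Ccr2, F13a1, C1qa and C1qb. Ccr2, the antigen of MC-21, was at 1.91 to 3.26 RPKM in PBS libraries and at 0.390, 0 and 0.200 RPKM in MC-21 replicates 2 to 4. Their part in the differences described here was not tested. The mice, and not cells or genes, are the replicates.

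Promoter sequence is shown for 3 members, Cd177 because it was the one that differed between the groups after adjustment, Camp because its highest value over the 7 libraries was farthest above its lowest, and Ngp because its values lay within a narrow range. The sequences are the 250 bases before the transcription start in GRCm38.p6 as given by RefSeq, read 5' to 3' on the strand of the gene, at chr7:24760312-24760561 (minus strand) for Cd177, chr9:109849457-109849706 (minus strand) for Camp and chr9:110419558-110419807 (plus strand) for Ngp. Capitals mark matches on either strand to TTNNGNAA, a core of the sites bound by C/EBP proteins, the factors that drive granule genes.
Cd177: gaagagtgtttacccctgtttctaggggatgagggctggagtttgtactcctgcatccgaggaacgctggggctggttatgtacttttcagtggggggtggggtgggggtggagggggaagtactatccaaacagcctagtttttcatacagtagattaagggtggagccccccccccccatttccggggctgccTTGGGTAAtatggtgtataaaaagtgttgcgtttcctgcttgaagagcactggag
Camp: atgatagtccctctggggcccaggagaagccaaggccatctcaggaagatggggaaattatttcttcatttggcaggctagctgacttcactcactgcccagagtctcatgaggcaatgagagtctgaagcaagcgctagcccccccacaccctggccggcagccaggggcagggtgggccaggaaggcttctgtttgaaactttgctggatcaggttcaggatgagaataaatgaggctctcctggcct
Ngp: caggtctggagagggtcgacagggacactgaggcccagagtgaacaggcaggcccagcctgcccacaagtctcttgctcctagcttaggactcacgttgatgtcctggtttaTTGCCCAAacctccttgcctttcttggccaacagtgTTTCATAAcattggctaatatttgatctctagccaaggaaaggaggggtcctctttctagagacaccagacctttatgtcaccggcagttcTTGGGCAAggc

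Cd177 had 1 match, TTGGGTAA, starting at position -55 from the transcription start, Ngp had 3, starting at -138, -102 and -11, and Camp had none in these windows. Within 300 bases (250 before the start and 50 after it), TTNNGNAA occurred in 7 of the 8 members that the promoter table holds, against 40.68% of all 32851 promoters of that table. GAGGAA, the core of sites of the myeloid factor PU.1, occurred in 5 of 8 members against 28.28% of promoters. TATAAA, the letters of the TATA box, occurred in 2 of 8 (Cd177 and Mmp8) against 13.62%. The TATAAA match of Cd177 started at -40 on the strand of the gene. That of Mmp8 was on the opposite strand at -3, across the transcription start, and is not placed as a TATA box. Both strands were searched for each motif, and 0 pairs of matches overlapped in the members. Mmp9 and Hp were not among the matched promoters. These are counts of letters, and binding was not measured.

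In mm9 the members lie on several chromosomes. Ltf (chr9:110921796-110945270, plus strand, 17 exons), Camp (chr9:109749889-109751970, minus), Ngp (chr9:110322254-110325514, plus) and Mmp8 (chr9:7558429-7568486, plus) are on chromosome 9. Lcn2 (chr2:32240153-32243317, minus) and Mmp9 (chr2:164766280-164781350, plus) are on chromosome 2, Retnlg (chr16:48872721-48874611, plus) and Itgb2l (chr16:96643895-96665226, minus) on chromosome 16, Cd177 (chr7:25529004-25545330, minus) on chromosome 7 and Hp (chr8:112099030-112103072, minus) on chromosome 8. These spans are protein-coding genes of the annotation, and the RPKM values are totals for the gene without a position inside it.

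The levels of the members spanned several orders of size. Retnlg, which encodes the secreted resistin-like protein gamma, was by far the most abundant, ranking between 7 and 23 of all genes in every library. It was followed by Lcn2, whose protein binds iron-carrying siderophores, and Hp, whose protein haptoglobin binds free hemoglobin, with ranks of 40 to 138 and 81 to 109. Next came Mmp9, the gelatinase that names the gelatinase granule (rank 212 to 351), then Ngp, a cathelin-like granule protein (rank 903 to 1498), and then Cd177, Mmp8, Camp, Ltf and Itgb2l. Levels are compared here on the RPKM scale, which divides by transcript length although reads of a 3' library do not scale with length, so that a short transcript such as Retnlg stands relatively high.

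Retnlg exceeded Lcn2, Hp exceeded Mmp9 and Mmp9 exceeded Ngp in 7 of 7 libraries with no overlap of their ranges, and Ngp exceeded Cd177 in 7 of 7 libraries. The other neighbours in this order were not separated by their spread, with Lcn2 above Hp in 5, Cd177 above Mmp8 in 4, Mmp8 above Camp in 4, Camp above Ltf in 6 and Ltf above Itgb2l in 3 of 7 libraries.

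**Figure D1:**
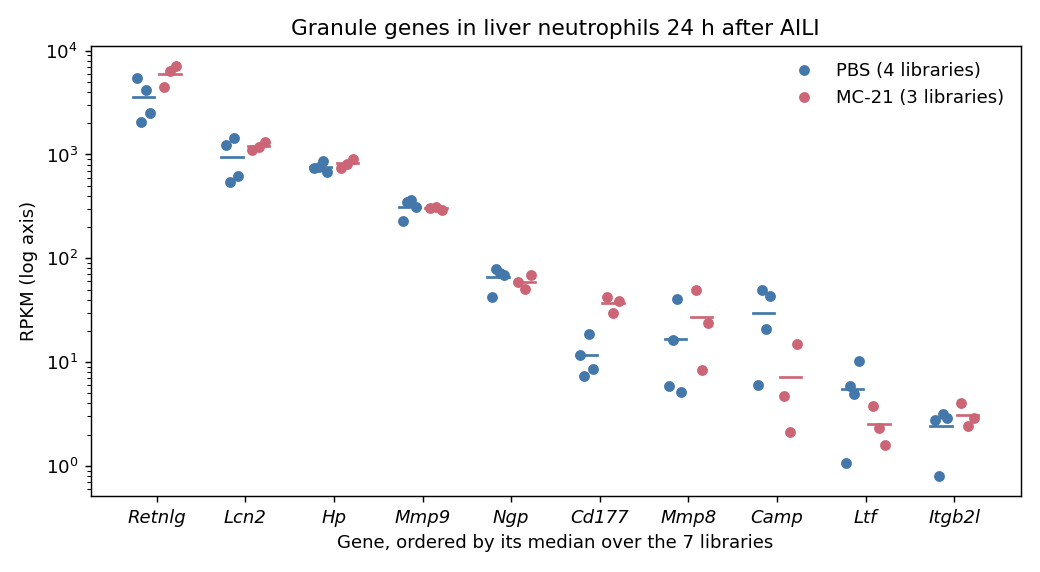
RPKM of the 10 granule genes on a log axis, ordered by their median over the 7 libraries, with each point 1 library and PBS (n = 4) and MC-21 (n = 3) shown side by side. Retnlg lies between 2069 and 7058 RPKM and Itgb2l between 0.803 and 4.06 RPKM, and in Cd177 all 3 MC-21 points lie above all 4 PBS points.

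The comparison of MC-21 with PBS neutrophils asks how the absence of Ly6Chi monocytes bears on the transcripts of liver neutrophils. Of the 10 granule genes, Cd177 rose in MC-21 neutrophils, and for the other 9 no difference passed the adjusted threshold. Camp was lower by 1.89 on the log2 scale and Retnlg higher by 0.83, neither called. Differences are those of log2(RPKM + 1) in MC-21 less PBS neutrophils, tested with limma and adjusted by the method of Benjamini and Hochberg over all 9594 genes. This scale understates the change of genes with low values.

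At an adjusted p under 0.05, 1 of the 10 members was called, against 0.625% of all genes tested in either direction and 0.198% higher. At an unadjusted p under 0.05, 3 members were called (Camp, Cd177 and Retnlg) against 14.7% of all genes, and 2 of these (Camp and Cd177) also differed by at least 2-fold, against 2.7%. The groups did not overlap in 1 member, Cd177, against 13.3% of all genes in either direction and 3.1% higher. The difference was positive for 6 members and negative for 4. Their median was 0.22, beside -0.15 over all genes tested, of which 69.4% were lower in MC-21 neutrophils. That background moved with the scaling, since median centring raised the median of all genes by 0.16 and quantile normalization by 0.14. The calls over all genes, 19 higher and 41 lower as tested here, were 44 and 30 after median centring and 26 and 29 after quantile normalization. The members' median of 0.38 after median centring and 0.21 after quantile normalization stood against 0.02 and -0.01 over all genes.

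**Figure D2:**
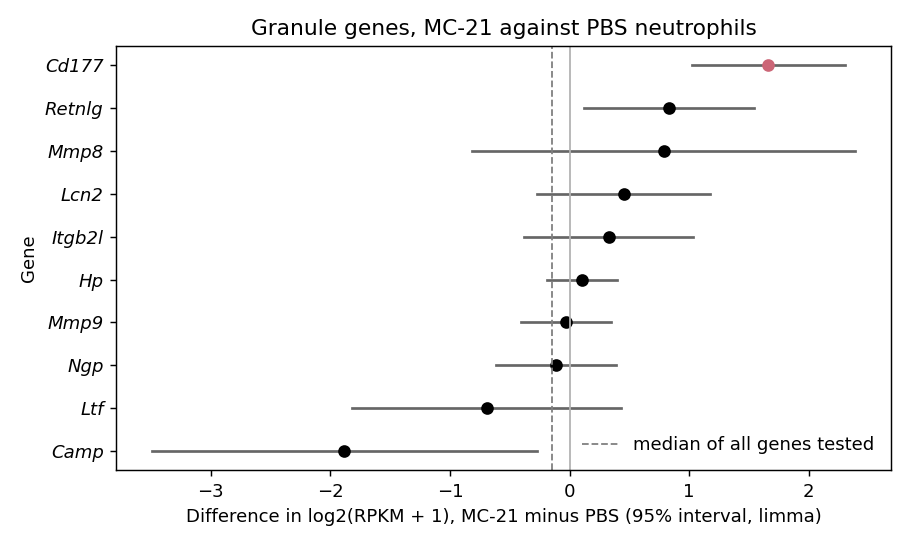
Difference in log2(RPKM + 1), MC-21 minus PBS, for each granule gene with its 95% interval from limma, the dashed line marking the median of all genes tested (-0.15). The interval lies wholly above 0 for Cd177 (1.02 to 2.30) and Retnlg (0.12 to 1.55) and wholly below 0 for Camp (-3.50 to -0.28), before adjustment.

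Cd177 encodes a surface glycoprotein of neutrophils that is also stored in specific granules and binds PECAM1 on endothelial cells. It stood at 11.8, 7.36, 18.7 and 8.65 RPKM in PBS replicates 5 to 8 and at 42.7, 29.9 and 39.0 RPKM in MC-21 replicates 2 to 4. The lowest MC-21 library was thus above the highest PBS library. The means were 11.6 ± 5.06 (SD, n = 4) and 37.2 ± 6.6 RPKM (SD, n = 3), a ratio of 3.20, and the difference in log2(RPKM + 1) was 1.66 with a standard error of 0.29 (limma, adjusted p = 0.0415).

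The exact permutation test of Cd177 over the 35 splits gave a two-sided p of 0.0571, where the smallest that the design allows is 0.0286. The size of the difference lay between 1.49 and 1.90 under every alternative run, but the adjusted p of limma was 0.0789 without PBS replicate 5, 0.140 without PBS replicate 8, and 0.123, 0.0771 and 0.137 without MC-21 replicates 2, 3 and 4. The call was also lost without a filter on low values (adjusted p = 0.157), in limma without a trend (adjusted p = 0.0514) and in a test of each gene on its own variance (adjusted p = 0.241). The RPKM values of Cd177 stood for about 67 to 135 reads in PBS and 129 to 413 in MC-21 libraries at the annotated transcript length, which did not give whole reads.

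Of the 50-base stretches of the Cd177 transcript, 3.32% also occur in BC049730, a neighbouring gene. Whether reads fell on these stretches was not tested. BC049730 was at 7.15, 19.5, 8.86 and 5.96 RPKM in PBS and 24.1, 20.8 and 29.7 RPKM in MC-21 neutrophils. Its groups did not overlap either, with a difference of 1.31 in log2(RPKM + 1) that was not called (limma, adjusted p = 0.139). The other 9 members shared no stretch of 50 bases with another coding transcript.

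Retnlg was at 5402, 2069, 4178 and 2515 RPKM in PBS replicates 5 to 8 and at 4458, 6428 and 7058 RPKM in MC-21 replicates 2 to 4. Only PBS replicate 5 reached into the range of the MC-21 libraries. The means were 3541 ± 1537 (SD, n = 4) and 5981 ± 1356 RPKM (SD, n = 3), and the difference in log2(RPKM + 1) of 0.83 (standard error 0.32) was not called after adjustment by limma (unadjusted p = 0.0263, adjusted p = 0.281). The exact permutation p was 0.114.

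Camp encodes cathelicidin, the precursor of an antimicrobial peptide and a classic product of specific granules. It was at 6.04, 49.6, 20.7 and 43.4 RPKM in PBS replicates 5 to 8 and at 4.67, 2.10 and 15.01 RPKM in MC-21 replicates 2 to 4. The PBS libraries fell into a low one, replicate 5, within the range of MC-21, and 3 others that all lay above it. The difference in log2(RPKM + 1) was -1.89 (standard error 0.72, 95% interval -3.50 to -0.28) and was not called by limma (unadjusted p = 0.0263, adjusted p = 0.281), with an exact permutation p of 0.114.

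The Camp values rested on 10, 99, 33 and 103 reads in PBS and 10, 2 and 25 reads in MC-21 libraries, so that the lowest value, 2.10 RPKM in the shallowest library, had a Poisson interval of 0.254 to 7.58 RPKM at 95%. This covers counting error only, and whether molecular barcodes were used to remove copies is not given in the sources used here.

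**Figure D3:**
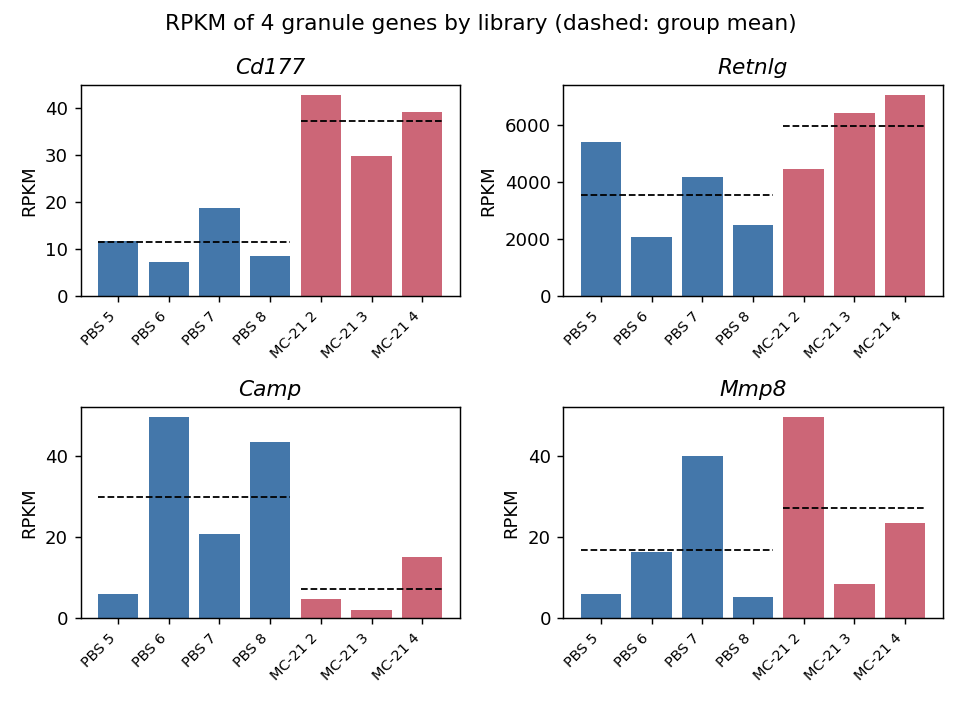
RPKM of Cd177, Retnlg, Camp and Mmp8 in each library, as bars from 0, with the group mean dashed (PBS, n = 4; MC-21, n = 3). The Cd177 bars separate the groups, while in Retnlg, Camp and Mmp8 at least 1 library of a group lies within the range of the other.

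Ltf, which encodes lactoferrin, the iron-binding protein by which specific granules are commonly recognised, was low in these cells. It was at 1.06, 5.91, 4.94 and 10.2 RPKM in PBS and 3.78, 2.29 and 1.57 RPKM in MC-21 neutrophils, on 8 to 111 reads. PBS replicate 5 was below all MC-21 libraries and the other 3 PBS libraries were above them. The means were 5.53 ± 3.76 (SD, n = 4) and 2.55 ± 1.12 RPKM (SD, n = 3), with a difference of -0.69 in log2(RPKM + 1) (95% interval -1.82 to 0.43; limma, adjusted p = 0.559).

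Ngp was at 42.1, 78.1, 72.5 and 69.6 RPKM in PBS and 59.1, 50.3 and 68.4 RPKM in MC-21 neutrophils. All 3 MC-21 libraries lay inside the PBS range. The difference in log2(RPKM + 1) was -0.12 (95% interval -0.62 to 0.39; limma, adjusted p = 0.843), and it turned to 0.05 with median centring of the libraries. Camp stood below Ngp in every library.

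Lcn2 was at 1225, 542, 1436 and 616 RPKM in PBS and 1115, 1178 and 1315 RPKM in MC-21 neutrophils. The PBS libraries split into a high pair, replicates 5 and 7, and a low pair, replicates 6 and 8, and all 3 MC-21 libraries lay above the low pair, with replicate 4 between the libraries of the high pair and replicates 2 and 3 below both. The difference in log2(RPKM + 1) was 0.45 (95% interval -0.27 to 1.18; limma, adjusted p = 0.553). Hp was at 738, 762, 868 and 682 RPKM in PBS and 748, 805 and 906 RPKM in MC-21 neutrophils and was the steadiest member, its highest value being 1.33 times its lowest, with a difference of 0.11 (95% interval -0.19 to 0.40; limma, adjusted p = 0.744).

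Hp and Lcn2 are also made by hepatocytes, so hepatocyte RNA could add to their values. The 12 hepatocyte markers summed to 357 to 751 RPKM in PBS and 355 to 539 RPKM in MC-21 libraries, with Alb, the gene of serum albumin, at 23.0 to 85.1 RPKM. None of the 10 that could be tested was called by limma at an adjusted p under 0.05. The part of such RNA in the Hp and Lcn2 values was not tested.

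The 3 remaining members are the collagenase Mmp8, the gelatinase Mmp9 and the integrin beta chain-like Itgb2l. Mmp9 was at 230.0, 349, 368 and 312 RPKM in PBS and 307, 309 and 294 RPKM in MC-21 neutrophils. The groups overlapped, and the difference in log2(RPKM + 1) of -0.03 (95% interval -0.41 to 0.35; limma, adjusted p = 0.952) had the interval narrowest after that of Hp among the members.

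Mmp8 varied far more, with 5.90, 16.3, 40.2 and 5.15 RPKM in PBS and 49.8, 8.45 and 23.6 RPKM in MC-21 neutrophils. High and low libraries occurred in both groups. The difference in log2(RPKM + 1) was 0.79 (95% interval -0.81 to 2.39; limma, adjusted p = 0.651), so that no difference was detected and the interval holds both signs.

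Itgb2l was at 2.76, 0.803, 3.16 and 2.89 RPKM in PBS and 4.06, 2.40 and 2.88 RPKM in MC-21 neutrophils, on 7 to 38 reads. The groups overlapped, and the difference in log2(RPKM + 1) was 0.33 (95% interval -0.38 to 1.04; limma, adjusted p = 0.675). Itgb2l overlaps Igsf5 on the opposite strand, and Igsf5 was at 0.318 RPKM or less in every library.

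The spread between mice differed among the members. In PBS neutrophils the coefficient of variation (SD over mean) was 96.8% for Mmp8 and 68.1% for Ltf and 67.5% for Camp. The relative counting error, a root mean square over the PBS libraries, was 11.9%, 21.2% and 19.4%. That error is weighted to the libraries with fewest reads and is not itself an SD over mean. The coefficient was 10.3% for Hp and 19.4% for Mmp9, against counting errors of 1.77% and 1.83%. For Itgb2l it was 44.9% against 26.1%, the members' smallest ratio of the spread to the counting error. Over all 7 libraries the highest value was 23.7 times the lowest for Camp, 9.68 for Ltf, 9.67 for Mmp8, 5.79 for Cd177, 3.41 for Retnlg, 2.65 for Lcn2, 1.86 for Ngp and 1.60 for Mmp9.

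The members did not all vary together, although some shared a pattern. PBS replicates 6 and 8 had the 2 highest values of Camp and of Ltf among the 7 libraries. They had the 2 lowest values of Lcn2, Retnlg and Cd177. PBS replicate 5 had the lowest Ltf of the 7 and, among PBS libraries, the lowest Camp and the highest Retnlg. On the centred log2(RPKM + 1) scale the root mean square distance from the mean profile of the 10 was 0.21 for Mmp9, 0.22 for Hp and 0.24 for Ngp, but 1.38 for Camp, 0.91 for Mmp8 and 0.81 for Cd177. This distance grows with a gene's own spread and does not measure likeness of pattern alone.

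**Figure D4:**
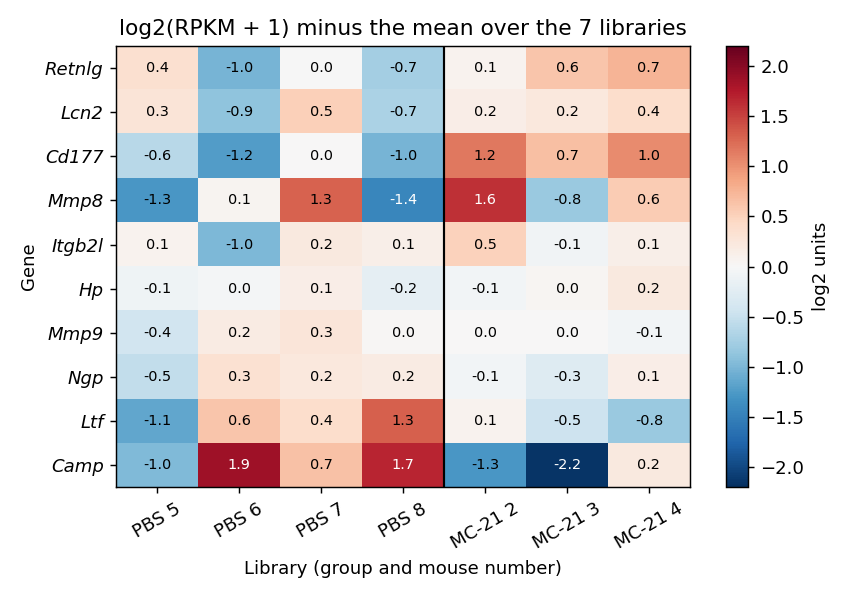
Heat map of log2(RPKM + 1) minus the gene's mean over the 7 libraries for each granule gene (rows) and library (columns), with values printed in the cells in log2 units and PBS to the left of the line. Camp is high in PBS replicates 6 and 8, where Retnlg, Lcn2 and Cd177 are low, and Hp, Mmp9 and Ngp vary less, between -0.54 (Ngp in PBS replicate 5) and 0.34 (Ngp in PBS replicate 6).

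The 5 genes with the profile nearest to the mean of the members were Ptpn1, Ubtd1, Capn1, Ankrd33b and Pram1, with root mean square differences of 0.09, 0.10, 0.10, 0.11 and 0.11 log2 units over 7 libraries and 5852 candidate genes. The mean profile itself ranged only from -0.43 in PBS replicate 5 to 0.37 in PBS replicate 7.

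Summed over the members, the RPKM was 7664, 3880, 7010 and 4264 in PBS replicates 5 to 8 and 6793, 8815 and 9723 in MC-21 replicates 2 to 4. This was 0.803 to 1.53% of the table's total in PBS and 1.36 to 1.93% in MC-21 neutrophils, and the groups overlapped. Retnlg made up 53.3 to 70.5% of the sum in PBS and 65.6 to 72.9% in MC-21 neutrophils. Without Retnlg the sums were 2164 ± 501 (SD, n = 4) and 2463 ± 178 RPKM (SD, n = 3).

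Other genes of specific and gelatinase granule proteins were examined beside the members. Of 16 listed genes 13 could be tested, 0 were called by limma at an adjusted p under 0.05, and the median difference was -0.17 against -0.15 over all genes tested. Lyz2, the gene of lysozyme, was lower in every MC-21 library at 106 ± 10.8 RPKM in PBS and 45.9 ± 18.1 in MC-21 neutrophils (difference -1.28, adjusted p = 0.0739), and so was Cybb, the membrane subunit of NADPH oxidase, at 15.3 ± 3.28 and 7.10 ± 1.75 RPKM (-1.01, adjusted p = 0.0791). The study reported both as reduced in MC-21 neutrophils, and Cybb also by quantitative RT-PCR of sorted neutrophils. Both are also expressed by monocytes and macrophages, whose markers had a lower sum in MC-21 libraries, as given above. Whether transcripts of such cells bear on either gene was not tested. Chil1 differed by -0.32 (adjusted p = 0.398).

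Azurophil granule genes, which are expressed earliest, were unequal in level. Mpo, the gene of myeloperoxidase, was at 0.198 RPKM or less and Ctsg, that of cathepsin G, at 0.253 RPKM or less in every library. Prtn3, that of proteinase 3, was at 1.30 to 7.04 RPKM, with means of 3.22 ± 0.776 (SD, n = 4) in PBS and 3.55 ± 3.07 RPKM (SD, n = 3) in MC-21 neutrophils (difference -0.08, limma, adjusted p = 0.943). Of 12 listed genes 7 could be tested, 0 were called by limma at an adjusted p under 0.05, and the median was -0.26. Ctsc, whose protease activates the serine proteases, differed by -1.27 without overlap (adjusted p = 0.0560), Man2b1 by -0.49 (adjusted p = 0.499) and Cd63, a granule membrane protein, by 0.33 (adjusted p = 0.461).

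Among genes of secretory vesicles and their surface proteins, 1 of the 7 tested rose (limma, adjusted p under 0.05), against 0.198% of all genes tested. This was Fpr1, the receptor for formylated peptides, at 31.7 ± 3.83 RPKM in PBS and 62.4 ± 9.75 RPKM in MC-21 neutrophils (difference 0.95, adjusted p = 0.0415). The call was lost without any of the 7 libraries, with adjusted p values of 0.0614 to 0.123. Cd14, a co-receptor for endotoxin, was higher in every MC-21 library (1.11, adjusted p = 0.0739), as was Fcgr3 (0.42, adjusted p = 0.258), and the median of the list was 0.37.

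The machinery by which granules are brought to the membrane and fused held 14 tested genes, of which 0 were called by limma at an adjusted p under 0.05. Their median was -0.19, near that of all genes. The lowest unadjusted p values were those of Rab3d, a small GTPase of secretory granules (-0.48, adjusted p = 0.285), Stx4a, a membrane syntaxin (-0.30, adjusted p = 0.376) and Unc13d, a priming factor (-0.39, adjusted p = 0.376).

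Of 11 tested granulocyte transcription factors 0 were called by limma, with a median of 0.07. Cebpe, which drives specific granule genes, was at 4.07 to 10.7 RPKM with a difference of -0.11 (adjusted p = 0.892). Bhlhe40 differed by 0.86 (adjusted p = 0.180), Runx1 by 0.84 (adjusted p = 0.199) and Cebpd by 0.40 (adjusted p = 0.190). Among 10 tested inhibitors, receptors and partners of the members 1 was called, against 0.625% of all genes tested. This was Lrp1, an endocytic receptor that takes up lactoferrin and proteinase complexes. It fell from 7.54 ± 2.73 to 1.87 ± 0.455 RPKM (difference -1.53, limma, adjusted p = 0.0412). It lost the call without 6 of the 7 libraries, all but PBS replicate 5, at adjusted p values of 0.0562 to 0.129. Itgal (-0.82, adjusted p = 0.139) and Timp3, an inhibitor of metalloproteinases (0.71, adjusted p = 0.165), were not called, nor was Pecam1, which encodes the ligand of CD177 (0.31, adjusted p = 0.413). The median of that list was 0.12.

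Among 14 tested genes of neutrophil age and release 1 was called, against 0.625% of all genes tested, and the median of the list was 0.30. This was Chil3, a chitinase-like secreted protein, which rose from 143 ± 66.2 to 769 ± 285 RPKM (difference 2.47, limma, adjusted p = 0.0172). Its adjusted p was 0.0571, 0.0814, 0.0631 and 0.0689 without PBS replicates 7 and 8 and MC-21 replicates 3 and 4. Wfdc21, a small secreted inhibitor-like protein, was higher in every MC-21 library (1.07, adjusted p = 0.0612), and S100a8 differed by 0.83 (adjusted p = 0.185). The 10 neutrophil markers summed to 16465 to 25774 RPKM in PBS and 23968 to 35188 RPKM in MC-21 neutrophils, overlapping like the sum of the granule genes. Most of that sum was S100a9, at 12275 to 20590 RPKM in PBS and 18142 to 25041 RPKM in MC-21 libraries. Of the 10 markers 8 had a positive and 2 a negative difference, and 0 were called by limma at an adjusted p under 0.05. In sorted bulk samples, a change in the mix of cells and a change of RNA per cell cannot be told apart.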

How the data were processed

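RNA-seq was performed on neutrophils of 4 PBS and 3 MC-21 livers. Per the submitters' processing notes and the study's methods, the authors aligned 3' reads (HISAT 0.1.5, mm9), handled alignments in SAMtools and quantified genes in Partek 6.6. The deposited values are RPKM per gene and library. The transcript annotation, multimapping, strand use and molecular barcodes are not given in the sources used here. Coordinates came from GENCODE of the same build and promoters from RefSeq.

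Tests used limma 3.58.1 (lmFit, eBayes with trend) in R 4.3.3 on log2(RPKM + 1) for genes averaging 1 RPKM or more, without further scaling, with Benjamini-Hochberg adjustment and a threshold of 0.05. Replicates were separate mice. Single members were also compared by a two-sided exact permutation test over 35 splits. Depth was read from low values. Of 631 genes used, 324 (51.3%) gave the same depth within 1%, and 77.8% of 3071 low values were whole reads to within 0.1. Reads of a member were rounded at the transcript length that gave whole reads. On simulated data for this comparison (9594 genes), limma called 180 of 200 genes changed by 2 on the log2 scale and 11 unchanged genes. The simulated noise was normal and independent between genes, with each gene's own residual SD and no pattern shared by libraries. These counts therefore do not give the power for smaller changes or for the real data.

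The genes named were the members, in each list the called genes or otherwise those with the 3 lowest p values, and the 5 nearest profiles. Genes named beside these were chosen after their values were seen. The members and lists were chosen with earlier results of these data known. Alternatives were a pseudocount of 0.1, no filter, an average of 5 RPKM or more, quantile normalization, median centring, limma without a trend, a t-test, and leaving out each library. Python 3.11.15, pandas 2.3.3, scipy 1.17.1 and matplotlib 3.10.9 were used. Ptx3, Fcnb, Elane, Mme, Prg2, Epx and Il5ra were not analysed here.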

Additional observations from a re-analysis of the deposited data

Results flagged for a closer look

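Within PBS neutrophils, Itgb2l was at 0.803 RPKM in replicate 6, on 7 reads, while the other 3 PBS libraries lay between 2.76 and 3.16 RPKM. Its gap to the nearest of them was 0.832 of the group's range, just above the 95% critical value for 4 samples in Dixon's test. It was 1 of 11 such groups examined, and about 1 in 20 passes by chance.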

How the results depend on the processing

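No paired analysis was possible because the groups share no replicate number. The count of called members, 1 (Cd177), became 0 without a filter, in limma without a trend and in the t-test, and ranged from 0 to 1 without single libraries. The count over all genes, 60, became 6 without a filter and 4 in the t-test, and ranged from 9 to 102 without single libraries. The exact test count rose from 0 to 1 under median centring, chosen after seeing the data. Under median centring, Ngp turned to 0.048 and Mmp9 to 0.13. Without single libraries, Mmp9 ranged from -0.17 to 0.053 (0.03 without PBS replicate 6) and Serpina1a from -0.46 to 0.071, and the cause was not tested. The other 8 members kept their direction in every alternative that gave a value. S100a9 had no difference under quantile normalization, which gives genes of the same rank the same value, so this setting could not test it. The calls of Fpr1, Lrp1, Chil3, Ccr2, F13a1 and C1qa were lost without a filter and in the t-test, which also ended that of C1qb (adjusted p = 0.0813). Lrp1 lost its call under quantile normalization (0.0663) and median centring (0.0541), F13a1 under quantile normalization (0.0650), Fpr1 in limma without a trend (0.0634) and Ccr2 with a pseudocount of 0.1 (0.0595). Ccr2 lost its call without 5 libraries in turn, F13a1 without 6, C1qa without 2 and C1qb without 0. The median over members stayed between 0.08 and 0.38, and the difference of summed RPKM between 2099 and 3564. Itgb2l had no value at a minimum of 5 RPKM. Camp, Ltf and Itgb2l rest on few reads in the shallowest library.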

Other observations

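Besides the mean profile, the genes nearest to single members over the 7 libraries were listed after the values had been seen, as a description. The profiles nearest to Cd177 were those of Wfdc21 and Ceacam10, a member of the family of carcinoembryonic adhesion molecules, both with a root mean square difference of 0.37 log2 units, followed by Ggt5 (0.42), Rab44 (0.43) and Sla (0.44). Ceacam10 was at 9.998, 9.16, 9.32 and 5.78 RPKM in PBS and 30.4, 19.8 and 22.3 RPKM in MC-21 neutrophils. Its groups did not overlap, but it was picked for its likeness to Cd177, whose groups do not overlap either, so this is no separate result. The profiles nearest to Retnlg were those of Igfbp6 (0.25), Il18rap (0.26) and the calprotectin subunits S100a8 (0.27) and S100a9 (0.29).

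Camp and Mmp8 had no profile as close in log2 units. This distance grows with a gene's own spread, which was wide for both, with highest values 23.7 and 9.67 times the lowest. The nearest profile was at 0.77 log2 units for Camp (Ccl24) and 0.55 for Mmp8 (Slfn4, at 12.0, 52.3, 94.3 and 20.6 RPKM in PBS and 87.0, 24.3 and 24.3 RPKM in MC-21 neutrophils). In Slfn4 as in Mmp8, PBS replicate 7 and MC-21 replicate 2 were the 2 highest libraries.

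The sorted cells also held transcripts of other liver cells. The 8 endothelial markers summed to 1665 to 3502 RPKM in PBS and 1797 to 3075 RPKM in MC-21 libraries, with 0 of 8 called by limma at an adjusted p under 0.05, and Siglecf, an eosinophil marker, was at 8.60 to 19.5 RPKM. Of 3 tested lymphocyte markers and 5 tested cycling cell genes 0 were called.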
